A study of Mus musculus with 16 samples.

Results

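The genes described here encode the constitutive 26S proteasome, measured as mRNA in epithelial cells of the mouse cecum. They were chosen by name alone, as every gene whose symbol starts with Psma, Psmb, Psmc or Psmd and a digit, without the 3 immunoproteasome genes Psmb8, Psmb9 and Psmb10, without symbols marked as pseudogenes (0 were present), and with a mean of at least 1 TPM (a transcript's share of each library, corrected for transcript length and library size) over the 9 RNA libraries. The rule matched 37 genes and left 35, of 24091 genes in the table and 12155 with a mean of at least 1 TPM. Psma8 and Psmb11, the core subunits known from testis and thymus, fell under that level, with highest values of 0.0545 and 0.196 TPM in any library. The 35 genes are 31 subunits, 3 chaperones of proteasome assembly (Psmd5, Psmd9 and Psmd10), and Psmc3ip, which shares the name stem but encodes a recombination factor and no proteasome subunit.

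The 26S proteasome is the cell's main machine for degrading proteins tagged with ubiquitin. Its barrel-shaped core is built of rings of alpha subunits, which gate the entry, and rings of beta subunits, of which Psmb5, Psmb6 and Psmb7 carry the cutting sites. A regulatory particle caps the barrel: its base holds the Psmc ATPases, which unfold substrates and thread them inwards, together with the scaffold and ubiquitin-binding subunits Psmd1, Psmd2 and Psmd4, and its lid removes the ubiquitin chain through Psmd14. Interferon-driven cells exchange the cutting subunits for Psmb8, Psmb9 and Psmb10, which gives the immunoproteasome. In the gut epithelium the proteasome serves a tissue of fast renewal and also shapes the peptides presented on major histocompatibility complex molecules.

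The series compared C57BL/6 mice given Splenda, with or without ampicillin, and then a gavage. All 3 groups received Splenda at 10 g/L for 7 days. The vehicle group (Vehicle_Mock) had nothing else and a mock gavage of 25% glycerol, the ampicillin group (Amp_Mock) also received ampicillin at 1 g/L and the mock gavage, and the tributyrin group (Amp_Tributyrin) received ampicillin at 1 g/L and a gavage of tributyrin, a triglyceride of butyrate; cells were collected 6 h after the gavage. Each group had 3 libraries, and whether these were separate animals is not stated in the labels; the p-values therefore reflect only how far libraries of a group differ, which may be technical; age is not given in the sources used here. No RNA library came from mice given tributyrin without ampicillin. The series' 7 chromatin and input samples were not analysed here.

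The labelled cell type was checked against marker genes. All 10 epithelial markers had a mean of at least 1 TPM, and their summed level was 12601 to 14549 TPM in vehicle, 11237 to 12270 in ampicillin and 11831 to 12614 in tributyrin libraries. Markers of other cells were far lower but moved between groups. Erythroid markers (2 of 5 listed with a mean of at least 1 TPM) summed to 8.30 to 25.3, 13.4 to 36.6 and 94.3 to 133.8 TPM, T cell and intraepithelial lymphocyte markers (6 of 8) to 14.9 to 17.3, 11.6 to 19.9 and 22.9 to 40.5 TPM, and myeloid markers (3 of 8, with S100a8 at 0 in every library) to 9.19 to 15.9, 13.4 to 21.2 and 23.0 to 27.8 TPM in the same order. Most of the myeloid sum was Cd74, an antigen-presentation gene that other cells also express, with means of 8.05, 12.3 and 21.0 TPM, while Lyz2 stood at 1.43, 1.80 and 1.64 TPM. Endothelial markers (1 of 5) summed to 3.88 to 4.48, 0.887 to 1.05 and 1.76 to 2.27 TPM. Most of that sum was Pecam1, with means of 3.79, 0.586 and 1.38 TPM, while Vwf stood at 0.320, 0.292 and 0.482 TPM. The part of these cells in the proteasome values was not tested. Read depth is unknown, because the deposited values are TPM without counts. In bulk RNA, fewer cells of a type and less RNA per cell cannot be told apart. A single small-RNA entry, Mir6236, took 0.705% to 4.48% of each library's TPM, most in vehicle replicate 2 and ampicillin replicate 1.

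The regions just upstream of 4 of these genes are shown. Psma6, Psmd4 and Psma5 were the members with the largest called differences between tributyrin and mock gavage. Psmb5, a catalytic subunit not called in any comparison, has a window with a motif known for proteasome genes, as does the catalytic subunit Psmb6. Each line gives the 250 bases before an annotated start in RefSeq's GRCm38.p6, read 5′ to 3′ on the gene's strand. Capitals mark every match, on either strand, to 3 motifs: TGACNNNGC, the core of the antioxidant response element bound by the Nfe2l1 and Nfe2l2 factors, CCAAT, bound by the nuclear factor Y trimer, and GGGCGG, the GC box.
Psma6 (chr12:55383972-55384221, plus strand): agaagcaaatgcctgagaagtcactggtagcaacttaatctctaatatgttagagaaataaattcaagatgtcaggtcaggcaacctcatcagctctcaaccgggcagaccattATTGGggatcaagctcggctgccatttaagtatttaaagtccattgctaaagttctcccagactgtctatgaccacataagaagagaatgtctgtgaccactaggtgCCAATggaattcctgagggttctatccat
Psmd4 (chr3:95042615-95042864, minus strand): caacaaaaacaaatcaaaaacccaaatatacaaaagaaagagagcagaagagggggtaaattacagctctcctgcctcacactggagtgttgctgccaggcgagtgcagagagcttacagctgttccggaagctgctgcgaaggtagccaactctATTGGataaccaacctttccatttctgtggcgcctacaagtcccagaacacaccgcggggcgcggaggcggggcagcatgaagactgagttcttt
Psma5 (chr3:108256676-108256925, plus strand): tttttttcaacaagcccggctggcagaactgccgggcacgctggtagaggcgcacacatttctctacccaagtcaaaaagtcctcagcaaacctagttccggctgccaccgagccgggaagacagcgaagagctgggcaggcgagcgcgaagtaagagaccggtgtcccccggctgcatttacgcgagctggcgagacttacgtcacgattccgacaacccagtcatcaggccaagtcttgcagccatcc
Psmb5 (chr14:54617996-54618245, minus strand): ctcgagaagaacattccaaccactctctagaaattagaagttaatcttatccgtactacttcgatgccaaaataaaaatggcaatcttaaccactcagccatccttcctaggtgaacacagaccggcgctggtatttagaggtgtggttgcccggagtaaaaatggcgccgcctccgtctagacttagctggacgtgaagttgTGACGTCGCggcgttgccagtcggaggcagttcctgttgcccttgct
Psma6 holds CCAAT at 29 to 25 bases before this start and its complement at 136 to 132, Psmd4 holds the complement of CCAAT at 95 to 91, Psma5 holds none of the 3 motifs, and Psmb5 holds TGACNNNGC at 47 to 39. Psma6 has a second annotated start inside the gene, whose window holds none of them. Which start these cells used was not tested.

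The promoter table held 31 windows for 29 of the 35 genes (Psmb1, Psmb2, Psmb7, Psmc3, Psmd3 and Psmd7 had none). TGACNNNGC was in 16.1% of the members' windows and in 10.2% of all 32851 windows, in Psmb5, Psmb6, Psmc6, Psmd12 and Psmd9. CCAAT was in 38.7% against 33.8% and GGGCGG in 54.8% against 32.7%. The TGACNNNGC match of Psmd9 overlaps its GC box. Psma6, Psmd4, Psma5 and Psmd2 are the members with a window called higher with tributyrin than with mock among ampicillin-treated mice. None of these holds TGACNNNGC. Psmc6, called higher only against vehicle, does, while Psmd5 and Psmd13, likewise called higher only against vehicle, do not. Psmb5, Psmb6, Psmd12 and Psmd9, which also hold it, were not called in any comparison. A match is a run of letters and was not tested as a binding site.

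Proteasome transcripts were abundant and steady. Together the 35 genes took 0.509% to 0.559% of each library's TPM. In vehicle libraries Psmb4, a structural beta subunit, was the highest at 457 ± 32.1 TPM (SD, n = 3), with 421, 466 and 483 TPM in its libraries. It stood apart from the next gene, Psmb1 at 292 ± 8.38 TPM, whose libraries did not reach 421. Psmb3 (281 TPM), Psmb7 (279), Psma7 (264), Psma4 (261), Psmb5 (259), Psma6 (240), Psmb6 (235) and Psma2 (230) followed, each overlapping its neighbour in the order. The ATPase Psmc5 was the highest regulatory subunit at 172 ± 2.29 TPM, and the lid subunits Psmd12 (67.2 TPM) and Psmd11 (66.9 TPM) were the lowest subunits. The assembly chaperones lay lower still, with Psmd10 at 40.1, Psmd5 at 37.4 and Psmd9 at 18.0 TPM, and Psmc3ip stood at 6.00 TPM. Of the 34 pairs of neighbours in this order, 23 overlapped between vehicle libraries.

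The core genes stood above the regulatory genes. The median gene mean in vehicle was 249 TPM for the 14 core genes and 118 TPM for the 17 regulatory genes. The ratio of the mean core level to the mean regulatory level was 2.14 ± 0.062 in vehicle, 2.08 ± 0.038 in ampicillin and 2.08 ± 0.042 in tributyrin libraries (SD, n = 3 each), and the ranges of the 3 groups overlapped. The 2 subunits that the name rule misses were also abundant: the ubiquitin receptor Adrm1 at 105 ± 3.97 TPM, and Sem1, a small lid subunit, at 829 ± 93.6 TPM in vehicle.

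The members varied less than other genes. The median SD of log2(TPM + 1) over the 9 libraries was 0.083 for the members and 0.151 for all 12155 genes, and 0.059 against 0.103 within groups. The members' median level was 129 TPM against 16.3 TPM for all genes, and the 2 sets were not matched on level. The steadiest subunits were Psma4 (250 to 272 TPM over all 9 libraries), Psma2 (226 to 247 TPM) and Psmd8, a lid subunit (149 to 161 TPM). Among true subunits Psma5 (118 to 163 TPM) and Psmb2 (163 to 222 TPM) spread the most. Psmb2 did so within groups, with 196, 222 and 176 TPM in the 3 tributyrin libraries.

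**Figure D1:**
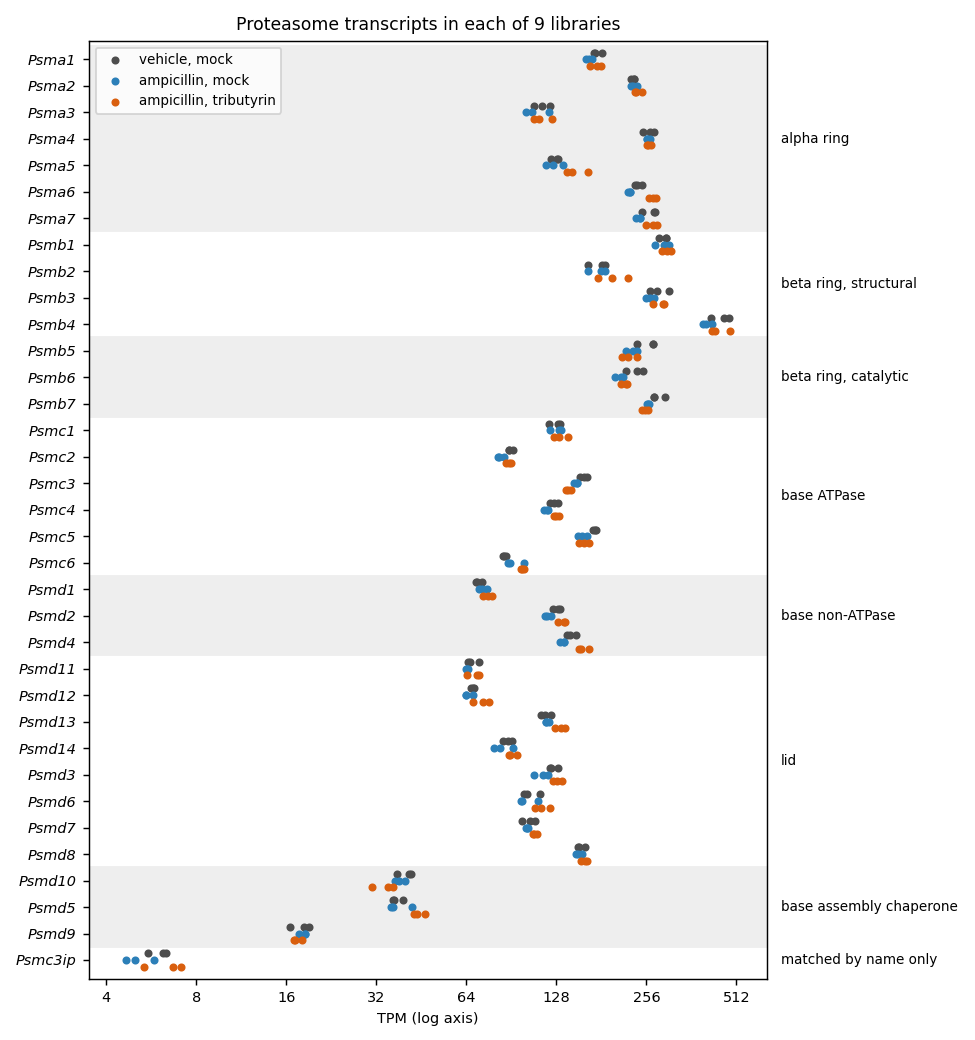
TPM on a log axis for each of the 35 genes, 1 point per library and 3 libraries per group, ordered by role. Psmb4 stands highest at 394 to 485 TPM, the regulatory subunits lie at or below 174 TPM, and the 3 groups lie close together for nearly every gene.

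Ampicillin against vehicle asks what the antibiotic does to the epithelium. No member passed the test: limma called 0 of 35 higher and 0 of 35 lower at a Benjamini-Hochberg adjusted p under 0.05, where 11.0% of all genes tested were higher and 10.2% lower. With array weights, which count noisier libraries less, limma called 7 members lower, and without vehicle replicate 2 it called 3. Shares of all genes called under these settings are not given here, so these counts have no baseline. At an unadjusted p under 0.05 there were 10 members (28.6%, against 34.0% of all genes), all with lower values after ampicillin, where 15.5% of all genes were lower at that p. The median difference of log2(TPM + 1) was -0.06 over the members and 0.02 over all genes, with 28 members below 0 and 7 above. How many of all genes lay below 0 was not counted. Ampicillin libraries lay wholly below vehicle libraries for 12 members (34.3%, against 18.2% of all genes) and wholly above for 1 (2.86%, against 22.6%). The 95% intervals of the 31 subunits all lay between -0.33 and 0.22.

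The 3 constitutive cutting subunits were all among the 10. Psmb6, the caspase-like site, read 250, 218 and 237 TPM in vehicle and 213, 211 and 200 TPM in ampicillin libraries. Every ampicillin library was below every vehicle library, and the log2 difference of -0.17 ± 0.057 (SE) had the members' lowest adjusted p, 0.063 (limma). Psmb5, the chymotrypsin-like site, read 268, 238 and 270 TPM against 219, 238 and 230 TPM. The groups overlapped, through vehicle replicate 2, and the difference was -0.17 ± 0.068 with an adjusted p of 0.111 (limma). Psmb7, the trypsin-like site, read 296, 271 and 271 TPM against 259, 256 and 261 TPM, without overlap, at -0.11 ± 0.047 and an adjusted p of 0.138 (limma). Leaving out vehicle replicate 2 brought Psmb6 (adjusted p 0.0194), Psmb5 (0.0407) and the alpha subunit Psma7 (0.0416) past the threshold by limma, all lower after ampicillin.

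Outside the cutting subunits no gene passed either, and the members with the largest difference in each role were as follows. In the alpha ring Psma7 read 274, 247 and 272 TPM in vehicle and 237, 244 and 243 TPM in ampicillin libraries (-0.13, adjusted p 0.125), and Psma6 247, 235 and 237 against 221, 225 and 225 TPM (-0.10, adjusted p 0.123). Both were lower in every ampicillin library. Among the structural beta subunits Psmb4 read 483, 421 and 466 against 394, 404 and 425 TPM (-0.16, adjusted p 0.142), and Psmb3 304, 278 and 262 against 263, 271 and 255 TPM (-0.09, adjusted p 0.334). In both the groups overlapped.

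The ATPases Psmc5 and Psmc2 came nearest to the threshold after Psmb6. Psmc5 read 174, 173 and 169 TPM in vehicle and 163, 156 and 152 TPM in ampicillin libraries (-0.13, adjusted p 0.0738), and Psmc2 89.0, 89.0 and 91.3 against 85.5, 81.4 and 82.5 TPM (-0.11, adjusted p 0.0825). Neither overlapped. In the base, Psmd2 read 125, 131 and 130 against 123, 117 and 119 TPM (-0.10, adjusted p 0.13) and Psmd4 142, 139 and 149 against 131, 136 and 135 TPM (-0.09, adjusted p 0.212), again without overlap. Psmd3 of the lid read 130, 123 and 121 against 120, 115 and 107 TPM (-0.13, adjusted p 0.137), and the 8 lid genes had a median of -0.04. The lid's cutting enzyme Psmd14 read 88.1, 85.0 and 91.2 against 79.3, 82.7 and 91.4 TPM (-0.06, adjusted p 0.521), with overlap. Among the chaperones Psmd10 lay at -0.06 and Psmd5 at 0.02. Psmc6, another ATPase, was the 1 member whose ampicillin libraries all lay above vehicle: it read 85.5, 86.5 and 84.7 TPM in vehicle and 88.4, 89.6 and 99.4 TPM in ampicillin libraries. The difference was 0.11 ± 0.050 with an adjusted p of 0.168 (limma).

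Summed over subunits, the regulatory particle read 1905 to 1950 TPM in vehicle, 1842 to 1867 in ampicillin and 1974 to 2004 in tributyrin libraries. In the TPM as deposited the 3 groups did not overlap, with ampicillin lowest and tributyrin highest. The core read 3263 to 3537, 3133 to 3224 and 3336 to 3464 TPM, with ampicillin lowest and the other groups overlapping. Means of the sums fell by 3.64% (regulatory) and 6.05% (core) from vehicle to ampicillin and were 6.94% and 6.46% higher with tributyrin than with ampicillin alone. These sums are descriptions, without a test. As deposited, the tributyrin means stood 3.04% above vehicle for the regulatory particle and level with vehicle for the core (0.02%). As an alternative, each library was divided by the median ratio of its genes to their mean over libraries (median-of-ratios scaling). Ampicillin then stayed lowest in mean for both parts, and tributyrin libraries were on average 2.89% and 2.50% above ampicillin (regulatory, core). Relative to vehicle they stood at -2.50% and -5.33%, so the order of tributyrin and vehicle turned for the regulatory particle. Without short RNA entries the core stood at -2.00% relative to vehicle and the regulatory particle at 0.94%. Under median-of-ratios scaling the tributyrin sums overlapped both other groups. The regulatory sums then read 1934 to 2016 TPM in vehicle, 1840 to 1910 in ampicillin and 1872 to 2001 in tributyrin libraries. The core sums then read 3312 to 3656, 3205 to 3213 and 3164 to 3499 TPM.

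Tributyrin against mock gavage among ampicillin-treated mice asks what the butyrate source adds. Of the 35 members, 5 rose and 0 fell by limma; 15.6% of all genes tested rose and 7.54% fell, so the members' share of 14.3% higher was near that of all genes. The 5 were 2 alpha ring subunits, Psma6 and Psma5, the base subunits Psmd4 and Psmd2, and the lid subunit Psmd3. At an unadjusted p under 0.05 there were 13 members (37.1%, against 37.7% of all genes), all above 0 except Psmd10. The count of 5 became 2 without ampicillin replicate 2, and 3 without vehicle replicate 3, ampicillin replicate 1, tributyrin replicate 1 or tributyrin replicate 2. Values were above 0 for 30 of 35, with a median of 0.09 against 0.05 for all genes, and above 0 for all 8 lid genes and all 7 alpha genes. The share of all genes above 0 was not counted, so these signs have no baseline here. Under median-of-ratios scaling the medians were 0.0353 for the members and -0.0003 for all genes. Tributyrin libraries lay wholly above ampicillin libraries for 12 members (34.3%, against 27.3% of all genes) and wholly below for 2 (5.71%, against 15.3%), Psmc3 and Psmd10.

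Psma6 (chr12:55384222-55418459), a subunit of the gate ring, had the clearest difference. It read 221, 225 and 225 TPM in ampicillin and 261, 270 and 274 TPM in tributyrin libraries, with vehicle libraries between them at 247, 235 and 237 TPM. The difference was 0.26 ± 0.040 (95% interval 0.17 to 0.35, adjusted p 0.00337 by limma), and it kept its call under all 19 alternatives. Psmd4 (chr3:95032688-95042614), a ubiquitin receptor of the base, read 131, 136 and 135 TPM and then 153, 155 and 165 TPM. Its difference was 0.23 ± 0.047 (adjusted p 0.0107, limma), without overlap, and it lost its call only under median-of-ratios scaling (0.17, adjusted p 0.0686).

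The other 3 were nearer to the threshold. Psma5 (chr3:108256926-108279952), another alpha subunit, read 118, 125 and 135 TPM in ampicillin and 144, 139 and 163 TPM in tributyrin libraries, at 0.24 ± 0.071 (adjusted p 0.0427, limma). Psmd2 (chr16:20651122-20663414), a large scaffold of the base, read 123, 117 and 119 TPM and then 135, 137 and 129 TPM, at 0.16 ± 0.043 (adjusted p 0.0291, limma). Psmd3 (chr11:98682554-98695978), a structural lid subunit, read 120, 115 and 107 TPM and then 129, 133 and 125 TPM, at 0.18 ± 0.054 (adjusted p 0.0477, limma). In all 3 the tributyrin libraries lay above every ampicillin library. Under median-of-ratios scaling none of these 3 kept its call (Psma5 at 0.18, adjusted p 0.152; Psmd2 at 0.10, 0.106; Psmd3 at 0.12, 0.18), and the count of 5 members became 1, Psma6. The test uses the spread of all 9 libraries, and Psma5 kept its call only without ampicillin replicate 3 or tributyrin replicate 2 (adjusted p 0.0515 to 0.135 in the other 7 omissions). Psmd2 kept it without any 1 vehicle library or tributyrin replicate 3 (0.0558 to 0.0989 in the other 5), and Psmd3 kept it without vehicle replicate 1, ampicillin replicate 1 or tributyrin replicate 3 (0.059 to 0.145 in the other 6).

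**Figure D2:**
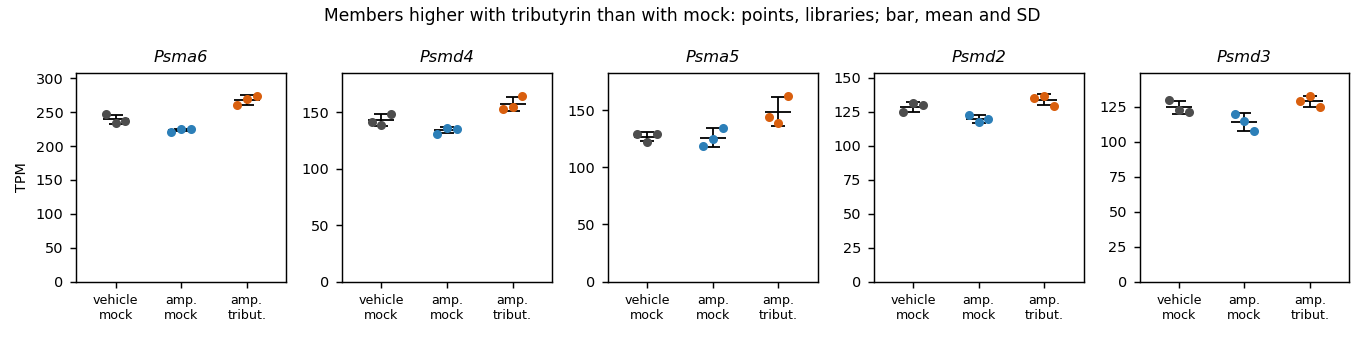
TPM of the 5 members that rose with tributyrin, with 3 libraries per group as points and the mean and SD as bars, on axes that start at 0. For Psma6 the tributyrin libraries sit at 261 to 274 TPM, above the ampicillin libraries at 221 to 225 TPM.

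The cutting subunits were among the 30 members not called in this comparison. Some members outside this group lay nearer 0, such as Psma4 (0.01) and Psmc5 (0.01). Psmb5 read 223, 211 and 239 TPM in tributyrin libraries, Psmb6 210, 220 and 218 TPM, and Psmb7 246, 253 and 259 TPM. All 3 overlapped the ampicillin libraries, and the log2 differences were -0.03 (95% interval -0.19 to 0.12), 0.05 (-0.08 to 0.18) and -0.03 (-0.14 to 0.07). A difference between the cutting subunits and the members that rose was not tested. Just short of the threshold were the chaperone Psmd5 (0.22 ± 0.069, adjusted p 0.0524, limma) and the lid subunit Psmd13 (0.15 ± 0.047, adjusted p 0.053, limma). Psmd5 read 35.9, 36.3 and 42.0 TPM in ampicillin and 43.7, 42.7 and 46.5 TPM in tributyrin libraries, and Psmd13 119, 118 and 121 and then 126, 133 and 137 TPM. Both were higher in every tributyrin library. Psmd14, the deubiquitinase of the lid, gave 0.11 with an adjusted p of 0.219.

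Among the structural beta subunits the largest values were those of Psmb2 and Psmb4. Psmb2 read 186, 181 and 164 TPM in ampicillin and 196, 222 and 176 TPM in tributyrin libraries (0.16, adjusted p 0.256), with overlap. Psmb4 read 394, 404 and 425 and then 433, 425 and 485 TPM (0.13, adjusted p 0.201), without overlap. Among the ATPases Psmc4 read 120, 116 and 119 and then 126, 128 and 130 TPM (0.11, adjusted p 0.0799), also without overlap, while Psmc3 went the other way (-0.08, adjusted p 0.158). The chaperone Psmd10 read 36.9, 38.2 and 39.8 and then 35.1, 31.0 and 36.5 TPM (-0.16, adjusted p 0.127).

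Tributyrin-treated and vehicle mice differ in both ampicillin and gavage, and this comparison shares its libraries with both others. Among the members 5 rose and 2 fell by limma (14.3% and 5.71%), where 19.1% of all genes tested rose and 9.21% fell; 11 passed an unadjusted p of 0.05 (31.4%, against 40.8% of all genes). The median was 0.04 against 0.08 for all genes. Under median-of-ratios scaling both medians moved down, to -0.04 for the members and 0.0054 for all genes. These counts moved in each of the 9 omissions of a library, over 1 to 5 higher and 0 to 4 lower. Libraries did not overlap for 8 members higher (22.9%, against 28.5% of all genes) and 4 lower (11.4%, against 13.2%). The 5 that rose were Psmc6, Psma6, Psmd13, Psmd5 and Psma5, and the 2 that fell were Psmc3 and Psmd10.

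Psmc6 read 98.5, 97.6 and 99.7 TPM in tributyrin libraries against 84.7 to 86.5 TPM in vehicle, at 0.20 ± 0.050 (adjusted p 0.0191, limma). Psma6 stood at 0.16 (adjusted p 0.0197), Psmd13 at 0.16 (0.0322), Psmd5 at 0.24 (0.0342) and Psma5 at 0.22 (0.0447), all by limma. Under median-of-ratios scaling none of the 5 kept its call, and their values there ran from 0.08 (Psma6) to 0.16 (Psmd5). When 1 library was left out, Psma5 kept its call only without ampicillin replicate 1 or 3 or tributyrin replicate 2 (adjusted p 0.0689 to 0.111 otherwise), and Psmd13 only without vehicle replicate 1, ampicillin replicate 3 or tributyrin replicate 1 (0.0515 to 0.0889 otherwise). Psmd5 kept it without vehicle replicate 3 or any ampicillin library (0.0599 to 0.091 otherwise). Psma6 lost it without vehicle replicate 2 or 3 or tributyrin replicate 2 (0.051 to 0.0623), and Psmc6 without vehicle replicate 3 or tributyrin replicate 1 or 2 (0.05 to 0.0588).

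Psmc3, an ATPase of the base ring, fell stepwise over the groups, at 162, 154 and 158 TPM in vehicle, 150, 147 and 150 TPM in ampicillin and 140, 138 and 143 TPM in tributyrin libraries. No 2 groups overlapped. The difference from vehicle to tributyrin was -0.17 ± 0.039 (adjusted p 0.0144, limma), and the 2 steps within it, at -0.09 and -0.08, did not pass. Without tributyrin replicate 2 the adjusted p was 0.0519. Psmd10, an assembly chaperone also known as the oncoprotein gankyrin, read 41.7, 37.5 and 41.1 TPM in vehicle and 35.1, 31.0 and 36.5 TPM in tributyrin libraries, at -0.23 ± 0.070 (adjusted p 0.0429, limma). Its call held only without vehicle replicate 2 or tributyrin replicate 3 (adjusted p 0.0567 to 0.126 in the other 7 omissions). Of the 3 chaperones, Psmd5 was thus higher and Psmd10 lower, and Psmd9 lay at -0.04 (adjusted p 0.609). The cutting subunits Psmb7 (-0.14, adjusted p 0.051) and Psmb5 (-0.20, adjusted p 0.0526) did not pass the threshold. In the base, Psmd4 stood at 0.14 (adjusted p 0.0597) and Psmd1 at 0.10 (adjusted p 0.141), each higher in every tributyrin library. Psmb2 stood at 0.15 (adjusted p 0.244) and Psmb4 at -0.03 (adjusted p 0.786).

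**Figure D3:**
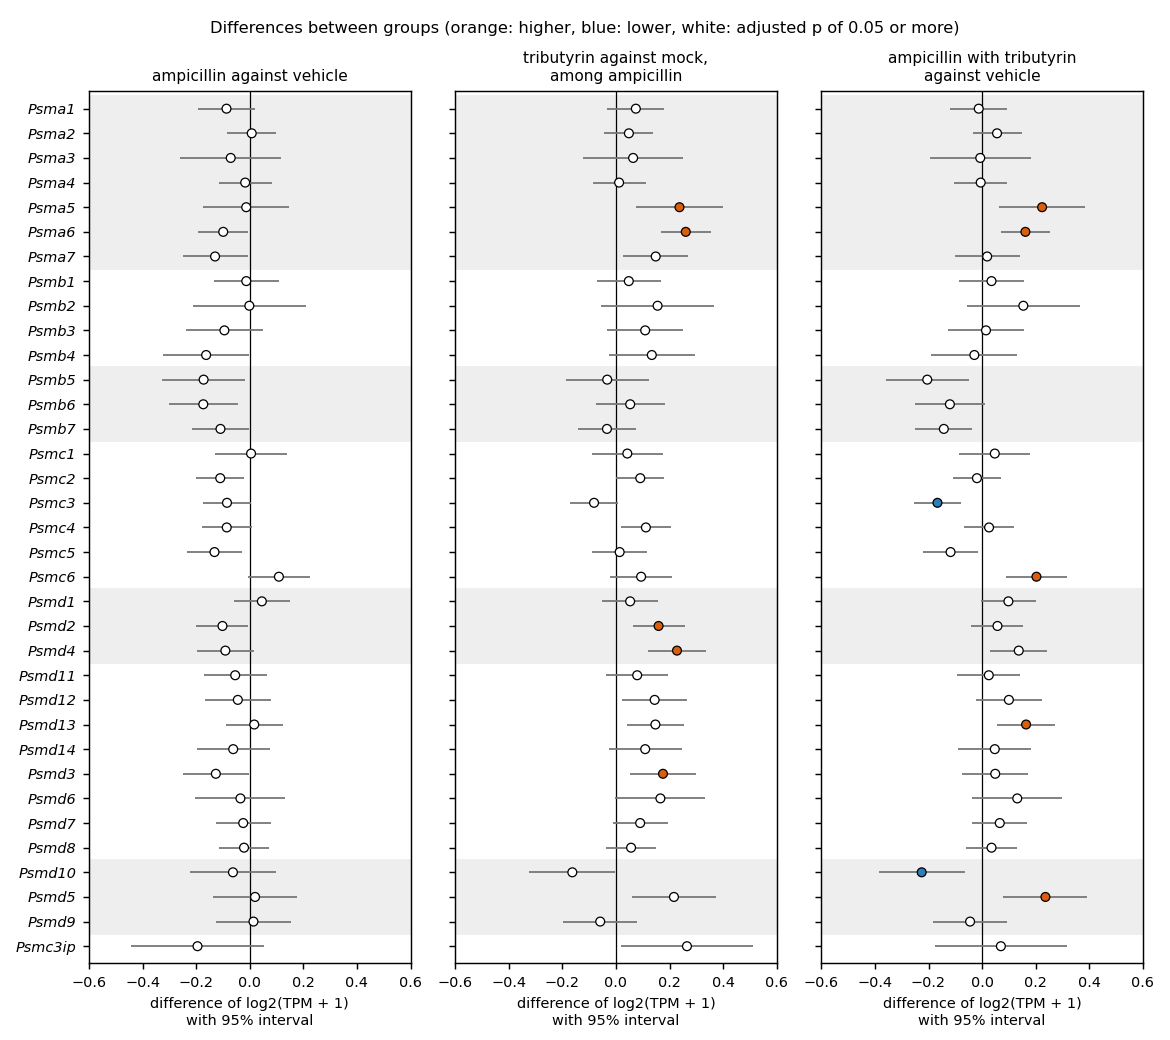
Difference of log2(TPM + 1) with its 95% interval for the 35 genes in the 3 comparisons, orange for called higher, blue for called lower and white for an adjusted p of 0.05 or more. No gene is called in the left panel, 5 are orange in the middle panel, and 5 are orange and 2 blue in the right panel.

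Of the immunoproteasome genes, which are not members, all 3 fell with ampicillin (100%, against 10.2% of all genes). With tributyrin 2 rose (66.7%, against 15.6%). With both against vehicle 2 were called lower (66.7%, against 9.21%), and libraries of all 3 lay wholly below vehicle (100%, against 13.2%). Psmb8 read 20.9, 19.1 and 24.2 TPM in vehicle, 6.37, 7.81 and 7.37 TPM in ampicillin and 16.1, 15.8 and 16.6 TPM in tributyrin libraries. It fell by 1.45 on the log2 scale with ampicillin (adjusted p 3.33e-05, limma) and rose by 1.07 with tributyrin (adjusted p 0.000425, limma). Psmb9 read 30.5, 28.5 and 35.3, then 12.3, 15.4 and 13.5, then 26.2, 22.8 and 26.5 TPM, with differences of -1.14 and 0.83 (adjusted p 0.000179 and 0.00143, limma). Psmb10 read 156, 148 and 170, then 108, 121 and 112, then 100, 86.5 and 109 TPM; it fell with ampicillin (-0.47, adjusted p 0.00704, limma) and did not pass with tributyrin (-0.21, adjusted p 0.13). Set against the site each replaces, Psmb8 over Psmb5 went from 0.0827 ± 0.00616 to 0.0313 ± 0.00199 and 0.0722 ± 0.0028, Psmb9 over Psmb6 from 0.134 ± 0.0137 to 0.066 ± 0.00761 and 0.117 ± 0.0111, and Psmb10 over Psmb7 from 0.567 ± 0.0521 to 0.439 ± 0.0289 and 0.39 ± 0.0416 (SD, n = 3). In every library the constitutive subunit of each pair was the higher. The endothelial, lymphocyte, myeloid and erythroid marker sums given above also moved between groups. The endothelial sum, mostly the single gene Pecam1, was lowest with ampicillin, as Psmb8 and Psmb9 were. Of the other endothelial markers, Cdh5, Kdr and Plvap had group means of at most 0.111 TPM. Vwf stood at 0.320, 0.292 and 0.482 TPM. The lymphocyte, myeloid and erythroid sums were highest with tributyrin, while Psmb8 and Psmb9 were highest in vehicle. The part of these cells in the immunoproteasome values was not tested.

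**Figure D4:**
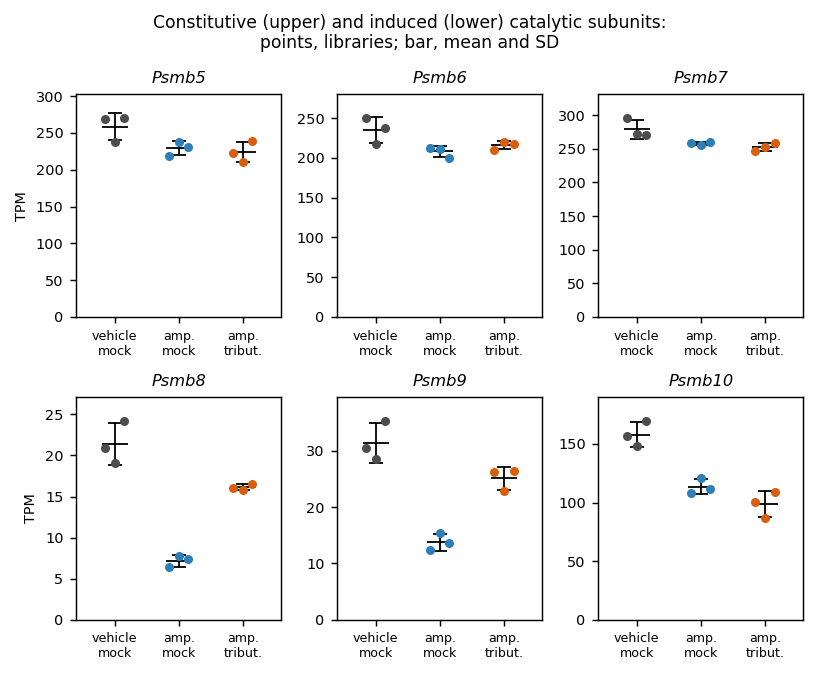
TPM of the constitutive cutting subunits Psmb5, Psmb6 and Psmb7 (upper row) and the induced Psmb8, Psmb9 and Psmb10 (lower row), with 3 libraries per group as points and the mean and SD as bars, on axes that start at 0 and differ in scale. Psmb8 is lowest in the ampicillin libraries, at 6.37 to 7.81 TPM, while Psmb5 stays between 211 and 270 TPM in all 9.

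Other genes of the pathway were taken from lists by role. Among all genes tested, 11.0% were called higher and 10.2% lower with ampicillin. With tributyrin over ampicillin these shares were 15.6% and 7.54%, and with both against vehicle 19.1% and 9.21%. Of 6 core assembly chaperones and import factors, only Akirin2, which brings proteasomes into the nucleus, was called: it fell with ampicillin (-0.20, adjusted p 0.0224) and rose with tributyrin (0.23, adjusted p 0.0119, limma), from 42.6 to 44.9 TPM in vehicle to 36.9 to 40.0 and 43.2 to 46.1 TPM. Its fall was lost in 4 of 9 omissions of a library, each of them a vehicle or ampicillin library (vehicle replicates 2 and 3, ampicillin replicates 1 and 2, adjusted p 0.0632 to 0.0859). Pomp, the chaperone that completes the core, lay at 236 to 294 TPM and was not called in any comparison.

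Among 5 activators and inhibitors of the core, the interferon-induced cap subunits Psme1 and Psme2 fell with ampicillin (-0.37 and -0.55, adjusted p 0.00745 and 0.00088, limma). Psme2 rose with tributyrin (0.28, adjusted p 0.0198), a call lost without ampicillin replicate 1 or 2 or tributyrin replicate 1 (adjusted p 0.0513 to 0.0701). With both against vehicle, Psme1 and Psme2 were called lower (40% of the list, against 9.21% of all genes). The other 3 genes of that list, among them the activator Psme4, were not called in any comparison.

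Among 7 deubiquitinases and other factors that bind the proteasome, 2 rose with ampicillin (28.6%, against 11.0% of all genes). With tributyrin over ampicillin 1 rose (14.3%, against 15.6%), and 4 were higher with both than in vehicle (57.1%, against 19.1%). Zfand5, which stimulates the 26S particle, rose with ampicillin (0.36, adjusted p 0.00218, limma), and so did Zfand2a, an arsenite-inducible partner (0.78, adjusted p 0.00523). Usp14, a deubiquitinase that trims chains on the particle, read 20.0 to 22.2 TPM in vehicle, 22.4 to 26.0 in ampicillin and 27.2 to 29.0 in tributyrin libraries, and rose with tributyrin (0.24, adjusted p 0.0384, limma). That call held only without vehicle replicate 1 or 2 or ampicillin replicate 3 (adjusted p 0.0523 to 0.127 in the other 6 omissions). Uchl5, the deubiquitinase docked on Adrm1, was higher with both treatments than in vehicle (0.28, adjusted p 0.0102, limma).

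Of 7 shuttle factors tested, which carry ubiquitinated proteins to the proteasome, 0 were called with ampicillin (limma, 1 at an unadjusted p under 0.05). With tributyrin 2 rose (28.6%, against 15.6% of all genes). These were Rad23b (0.37, adjusted p 0.0333, and 0.0541 to 0.113 without tributyrin replicate 1 or 2 or any 1 ampicillin library) and Ubqln1 (0.24, adjusted p 0.00648). Against vehicle, 1 was called with both treatments (14.3%, against 19.1% of all genes higher). It was Rad23b (0.32, adjusted p 0.0466, limma), which kept that call only without vehicle replicate 2 (0.0541 to 0.149 in the other 8 omissions). Of 10 genes for the p97 unfoldase and its cofactors only Ubxn6, a p97 adaptor, was called (10% of the list). It rose with ampicillin, as 11.0% of all genes did, and fell with tributyrin, as 7.54% did. The rise was 0.23 (adjusted p 0.0363, limma, held only without vehicle replicate 3, ampicillin replicate 1 or tributyrin replicate 2 or 3, and 0.0556 to 0.122 otherwise). The fall was -0.69 (adjusted p 0.000493, limma). With both against vehicle, Ubxn6 was also called lower (-0.47, adjusted p 0.00155, limma), as 9.21% of all genes were.

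The last list held 11 regulators of proteasome genes. With ampicillin 18.2% of them were called higher and 9.09% lower (11.0% and 10.2% of all genes). With tributyrin over ampicillin the shares were 9.09% and 18.2% (15.6% and 7.54% of all genes). With ampicillin 2 rose, the small Maf partners Maff (0.71, adjusted p 0.000869) and Mafk (0.37, adjusted p 0.0068), and the forkhead factor Foxo4 fell (-0.28, adjusted p 0.00554, limma). With tributyrin Nfya, a subunit of the CCAAT-binding factor, rose from 10.1, 10.3 and 10.3 to 17.8, 16.3 and 12.9 TPM (0.56, adjusted p 0.00519, limma), and Mafg (-0.35, adjusted p 0.00731) and Maff (-0.43, adjusted p 0.0108) fell. Nfe2l1, the factor known for raising all proteasome genes when the particle is short, lay at 46.3 to 57.0 TPM and was called only against vehicle with both treatments (-0.18, adjusted p 0.0496, limma), a call that held only without tributyrin replicate 1 (0.055 to 0.151 in the other 8 omissions). Of the list, 4 rose (36.4%, against 19.1% of all genes) and 3 fell (27.3%, against 9.21%) there. Nfe2l2 stood at 0.27 (adjusted p 0.0112), Foxo4 at -0.25 (0.00919), Nfya at 0.33 (0.0356) and Maff at 0.28 (0.0433, limma). Nfya kept that call only without tributyrin replicate 3 (0.0529 to 0.112 otherwise), and Maff only without vehicle replicate 1 or tributyrin replicate 3 (0.0584 to 0.132 otherwise). A relation between these regulators and the members was not tested.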

How the data were processed

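Gene expression was measured by RNA sequencing in 9 libraries of cecal epithelial cells, 3 per group. The authors deposited 1 table of TPM covering 24091 genes. Salmon (version 0.8.2), DESeq2 (version 1.20.0) and the mouse build mm10 are named in the submitters' processing notes, which give no role for any of them. TPM keeps no depth, so no count test was run. Genes with a mean of at least 1 TPM (12155) were transformed to log2(TPM + 1), which slightly understates changes of low genes, and fitted with limma 3.58.1 in R 4.3.3 with 1 mean per group, a mean-variance trend and 6 residual degrees of freedom; p-values were adjusted by Benjamini-Hochberg over all 12155 genes, with a threshold of 0.05. The procedure was tested on simulated data. With 3 libraries against 3, an exact permutation test cannot go below 0.1. Members and lists were chosen with earlier results of these data known. Any member could be named, with values by library for those called and, in a role without a call, for the largest differences; in each pathway list up to 4 called genes per comparison and a few of known role were named. Alternatives changed the pseudocount, the filter, the scaling, weights, trend, samples fitted or a replicate block. Promoters and gene positions are from RefSeq, GRCm38.p6. The 7 chromatin and input samples were not analysed here. The results of 1 pathway list are not reported here.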

Additional observations from a re-analysis of the deposited data

How the results depend on the processing

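Over 276 results for single genes, called or not, 19 alternatives gave 5241 values. Of these, 4920 kept their side of the threshold, 199 lost the call, 122 gained it and 0 reversed. A change of sign in a result without a call was not counted as reversed. Such changes occurred, as the members' median with both against vehicle went from 0.0351 to -0.0445 with median-of-ratios scaling. Leaving out 1 library in turn, members called lower with ampicillin numbered 0 to 3 (median difference -0.0889 to -0.0525), members higher with tributyrin over ampicillin 2 to 6, and members higher and lower with both against vehicle 1 to 5 and 0 to 4. In the order lower with ampicillin, higher with tributyrin, higher with both, lower with both, the counts of 0, 5, 5 and 2 became 1, 2, 2 and 4 with quantile normalization, 1, 1, 0 and 5 with median-of-ratios scaling, 1, 3, 2 and 4 without short RNA entries, and 7, 12, 3 and 4 with array weights (which also called 1 lower with tributyrin). Without a variance trend, 3 were higher with tributyrin and 1 lower with both; with only the 6 libraries compared, 3 were higher with tributyrin, 2 higher with both and 1 lower with both; with no filter on low values, 1 was lower with both. The members' medians moved to -0.0863 (ampicillin), 0.0353 (tributyrin) and -0.0445 (both) with median-of-ratios scaling. They moved to -0.0903 (ampicillin) with array weights and to 0.0055 (both) without short RNA entries. The medians of all genes were 0.0017, -0.0003 and 0.0054 with median-of-ratios scaling and 0.0510 (both) without short RNA entries. These scalings also moved the share of higher calls among all genes called, from 67.5% to 50.0% (median of ratios) and 47.1% (quantile) for tributyrin over ampicillin, and from 67.5% to 47.1% and 50.3% for both against vehicle. The causes were not tested. Same-numbered libraries deviated together only weakly, with correlations of -0.0498 to 0.108 in 9 pairs (1 over 0.1). In 18 other pairs they were -0.117 to 0.0748, and 6 of 9 libraries correlated best with their own number. The main fit did not pair libraries by number, because the labels do not say that the numbers pair them. Yet replicate 3 was lowest in every group for 10.4% of all genes, against 4.85% (replicate 1) and 1.75% (replicate 2). It was highest for 7.49%, against 2.65% and 6.79%. A shared effect of the number was not tested. A replicate block gave 1 lower with ampicillin, 8 higher with tributyrin, and 7 higher and 4 lower with both. Shares of all genes called with array weights, a replicate block or 1 library left out are not given here. Depth is unknown for TPM, and 3 libraries per group limit the precision.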

Other observations

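Libraries with the same replicate number sat at the same extreme of their group in all 3 groups for 13 of 35 members (37.1%), against 29.6% of all genes tested. Replicate 3 was the lowest in every group for 7 members (20.0%, against 10.4% of all genes), namely the structural beta subunits Psmb2 and Psmb3, the ATPases Psmc1 and Psmc5, the lid subunits Psmd3 and Psmd12, and Psmc3ip. It was the highest in every group for 4 (11.4%, against 7.49%), the alpha subunit Psma3, the lid subunits Psmd6 and Psmd14, and the chaperone Psmd5. Psmb2 shows the size of it, at 186, 182 and 163 TPM in vehicle, 186, 181 and 164 TPM in ampicillin and 196, 222 and 176 TPM in tributyrin libraries. The shares of all genes are not a chance level, which was not computed. The labels do not say that a replicate number marks a shared batch or animal.

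The highest value of a member over the 9 libraries fell in tributyrin replicate 3 for 14 members, tributyrin replicate 2 for 10, vehicle replicate 1 for 9 and vehicle replicate 3 for 2. The lowest fell in an ampicillin library for 22 members (11, 5 and 6 in replicates 1, 2 and 3).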
